A study of Mus musculus with 14 samples.

Results

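The 43 genes described here encode proteins of the lysosome and of the vacuolar proton pump (V-ATPase). They were taken from a list of names given for this work, and each was found among the 21774 protein-coding genes of the RefSeq annotation of the mouse genome build GRCm38. By role they comprised 9 cathepsins, 5 lysosomal membrane proteins, 6 hydrolases of sugars and lipids, 3 soluble cofactors and carriers, 4 transcription factors (TFs) of the MiT/TFE family, 6 subunits of the V0 sector of the pump, 8 subunits of its V1 sector and 2 accessory proteins of the pump. The rule that names them uses no measured value, but the list was drawn up with earlier results of these data known.

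Binding sites of 7 TFs were mapped by chromatin immunoprecipitation and sequencing (ChIP-seq) in cells derived from 1 mouse embryonic stem cell line of strain 129, which carries a GFP reporter in the Brachyury (Bry) gene. All populations descended from this reporter line. Mesoderm (MES) was sorted as Bry+ Flk1- cells, hemangioblast (HB) as Bry+ Flk1+ cells, hemogenic endothelium (HE) as Tie2+ cKit+ CD41- cells, and hematopoietic progenitors (HP) as CD41+ cells. Macrophages (MAC) were CD11b+ cells obtained by terminal differentiation of CD41+ cells in culture. Genotype was shared by all populations, but culture was not: MES and HB came from embryoid bodies, and the later populations from Flk1+ cells grown on with added cytokines, so that stage and culture cannot be told apart. The HE immunoprecipitations, made from few cells, also contained carrier mouse mRNA and carrier histone 2B. The question addressed is which of these factors sat at lysosomal genes, at which stage, and whether more often than at coding genes in general. Each of the 14 combinations of factor and stage was 1 peak list, so that there were no replicates and no difference between stages or factors could be tested. The sorted identities could not be checked against marker genes, since peak lists hold no expression values.

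Lysosomes break down proteins, lipids, sugars and whole organelles in an acid interior. The V-ATPase keeps that interior acid: its V1 sector hydrolyses ATP in the cytoplasm and turns a rotor that moves protons through the membrane-bound V0 sector. Macrophages are rich in lysosomes, which digest what the cells engulf. TFEB, TFE3, TFEC and MITF are related basic helix-loop-helix leucine zipper factors, and TFEB and TFE3 are known to activate many lysosomal genes through E-box-like sequences near their start sites.

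The lists ranged from 72 peaks (MAC RUNX1) to 82866 peaks (MAC PU.1), with 158488 in all, and each peak was 400 bp wide. The paper checked its samples by quantitative PCR of target sites. It gives no enrichment for MES C/EBPβ, HB C/EBPβ, HB GATA2 and MAC RUNX1, which were sequenced regardless because the antibodies were trusted. The threshold for calling peaks was set by eye for each list, so list lengths and the number of genes bound do not measure amounts of binding, and shares of the 43 genes are read only against the share of all coding genes in the same list. A gene was called bound at the promoter when a peak centre lay within 2 kb of a transcription start site (TSS) of a coding transcript, and bound in its span when a peak centre lay inside the gene extended by 10 kb on either side. Intervals are exact (Clopper-Pearson) 95% binomial intervals and cover counting error only.

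In macrophages nearly the whole set was bound near its start sites. PU.1, the ETS factor that directs myeloid development, had a promoter peak at 38 of 43 genes (88.4%, interval 74.9 to 96.1), against 50% of all coding genes. C/EBPβ, a basic leucine zipper factor of macrophages and their precursors, had one at 34 of 43 (79.1%, interval 64 to 90), against 36.6%. Both factors were at the promoter of 31 genes (72.1%, interval 56.3 to 84.7), against 29.9%, and the share of all coding genes lay below the interval in each of these 3 comparisons. PU.1 alone was found at 7 promoters (16.3%, against 20.1%), C/EBPβ alone at 3 (6.98%, against 6.71%) and neither at 2 (4.65%, against 43.3%). Within the extended spans, all 43 genes held a MAC PU.1 peak (100%, interval 91.8 to 100, against 75.1%) and all 43 a MAC C/EBPβ peak (against 67.8%). No member span held PU.1 without C/EBPβ (against 10.5%), C/EBPβ without PU.1 (against 3.23%) or neither (against 21.7%), and both were in 64.5% of coding spans. Any list at all had a peak at 41 member promoters (95.3%, against 57.7%) and in all 43 spans (against 78.7%). The third macrophage list, of RUNX1, had no peak at any member by either rule, which allows a share of up to 8.22%, and that list reached 0.106% of coding promoters and 0.354% of coding spans.

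**Figure D1:**
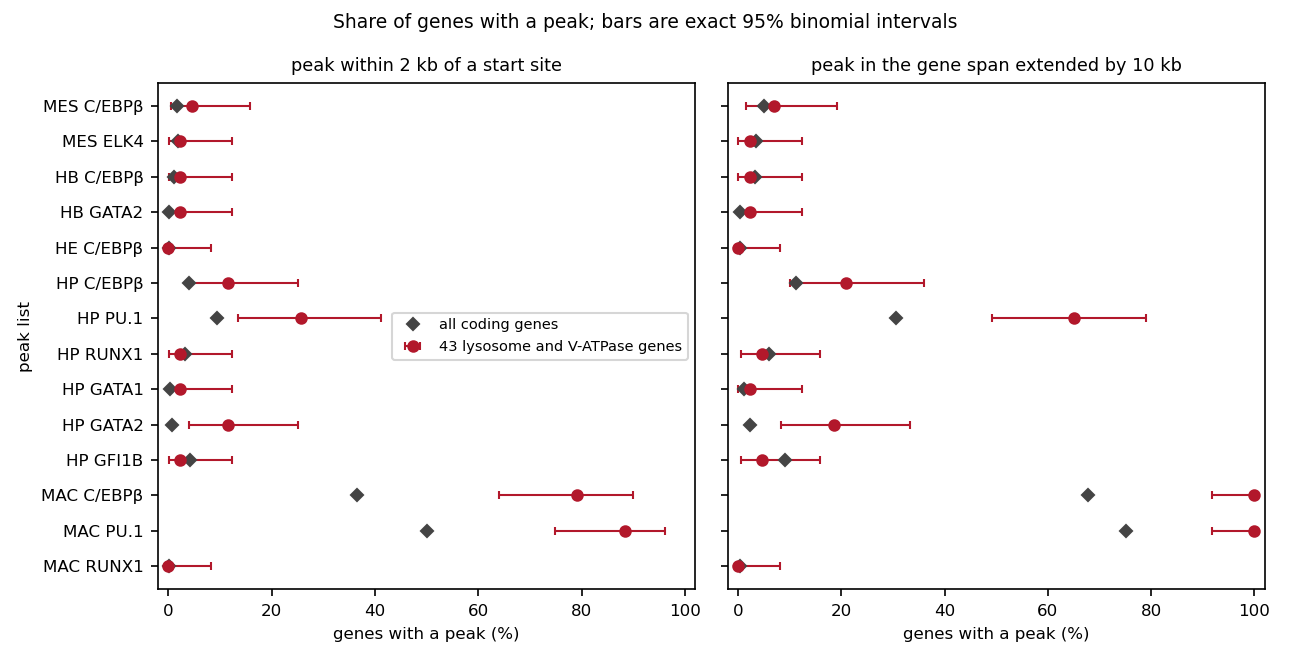
Share of genes with a peak in each of the 14 lists (horizontal axis, percent), within 2 kb of a start site (left) and in the gene span extended by 10 kb (right); circles are the 43 genes with exact 95% binomial intervals and diamonds are all 21774 coding genes. The circles stand clear of the diamonds in MAC PU.1, MAC C/EBPβ, HP PU.1 and HP GATA2, and in the early lists the intervals include the diamonds or the counts are of 0 or 1 gene.

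In progenitors the same 2 factors had reached part of the set. HP PU.1 was at 11 of 43 promoters (25.6%, interval 13.5 to 41.2), against 9.4% of coding genes, and in 28 of 43 spans (65.1%, interval 49.1 to 79), against 30.6%. With a promoter window of 1 kb it was at 7 promoters (16.3%, interval 6.81 to 30.7), and the share of coding genes, 7.13%, lay inside the interval. Of these 28 genes, 17 had HP PU.1 in the span but not at the promoter (39.5% of the set, against 21.2%). HP C/EBPβ was at 5 promoters (11.6%, interval 3.89 to 25.1, against 3.97%) and in 9 spans (20.9%, interval 10 to 36, against 11.2%), where the share of all coding genes lay inside the interval for promoters and spans alike. Both factors were at the promoters of Tfec, Atp6v0a1 and Atp6v1a (6.98% of the set, against 0.891%), and in the spans of 7 members (16.3%, against 6.09%).

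Among the other HP lists, the share of members exceeded that of coding genes most for GATA2. In the paper's check by quantitative PCR, HP GATA2 had the lowest enrichment given for an HP factor. That value was below the level at which samples were in general sequenced. HP GATA2 had a promoter peak at 5 members (11.6%, interval 3.89 to 25.1), against 0.735% of coding genes, and a peak in 8 spans (18.6%, interval 8.39 to 33.4), against 2.41%. The span count includes the promoter peaks, and with peaks more than 2 kb from any coding start alone it was 2 members (4.65%, against 1.4%). RUNX1 had 1 member promoter (2.33%, against 3.14%), GATA1 had 1 (against 0.308%) and GFI1B had 1 (against 4.19%). In spans these lists had 2 members (4.65%, against 5.94%), 1 (2.33%, against 1.25%) and 2 (4.65%, against 9.08%). Any HP list had a promoter peak at 17 members (39.5%, against 18%) and a peak in 32 spans (74.4%, against 41.6%).

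The 5 lists before the HP stage were short, from 97 to 1177 peaks, and few genes of any kind had a peak in them. MES C/EBPβ was at 2 promoters (4.65%, against 1.69% of coding genes), MES ELK4 at 1 (against 1.86%), HB C/EBPβ at 1 (against 1.05%) and HB GATA2 at 1 (against 0.0184%, which is 4 coding genes in all). HE C/EBPβ was at none (interval up to 8.22%, against 0.147%). In all, 4 members had a promoter peak before the HP stage (9.3%, interval 2.59 to 22.1, against 3.7%). Those 4 genes were Ctss, Atp6v0a1, Atp6v0d1 and Atp6v1f, 3 of which encode pump subunits. In spans the counts were 3 for MES C/EBPβ (6.98%, against 4.94%), 1 for MES ELK4 (against 3.54%), 1 for HB C/EBPβ (against 3.2%), 1 for HB GATA2 (against 0.303%) and none for HE C/EBPβ (against 0.473%), with 5 members in any of these lists (11.6%, against 9.53%). Counted over all stages, 16 members had promoter peaks in at least 3 lists (37.2%, interval 23 to 53.3, against 13.5%) and 7 in at least 4 (16.3%, interval 6.81 to 30.7, against 4.17%). For spans these counts were 33 (76.7%, against 40.3%) and 16 (37.2%, against 17.4%).

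**Figure D2:**
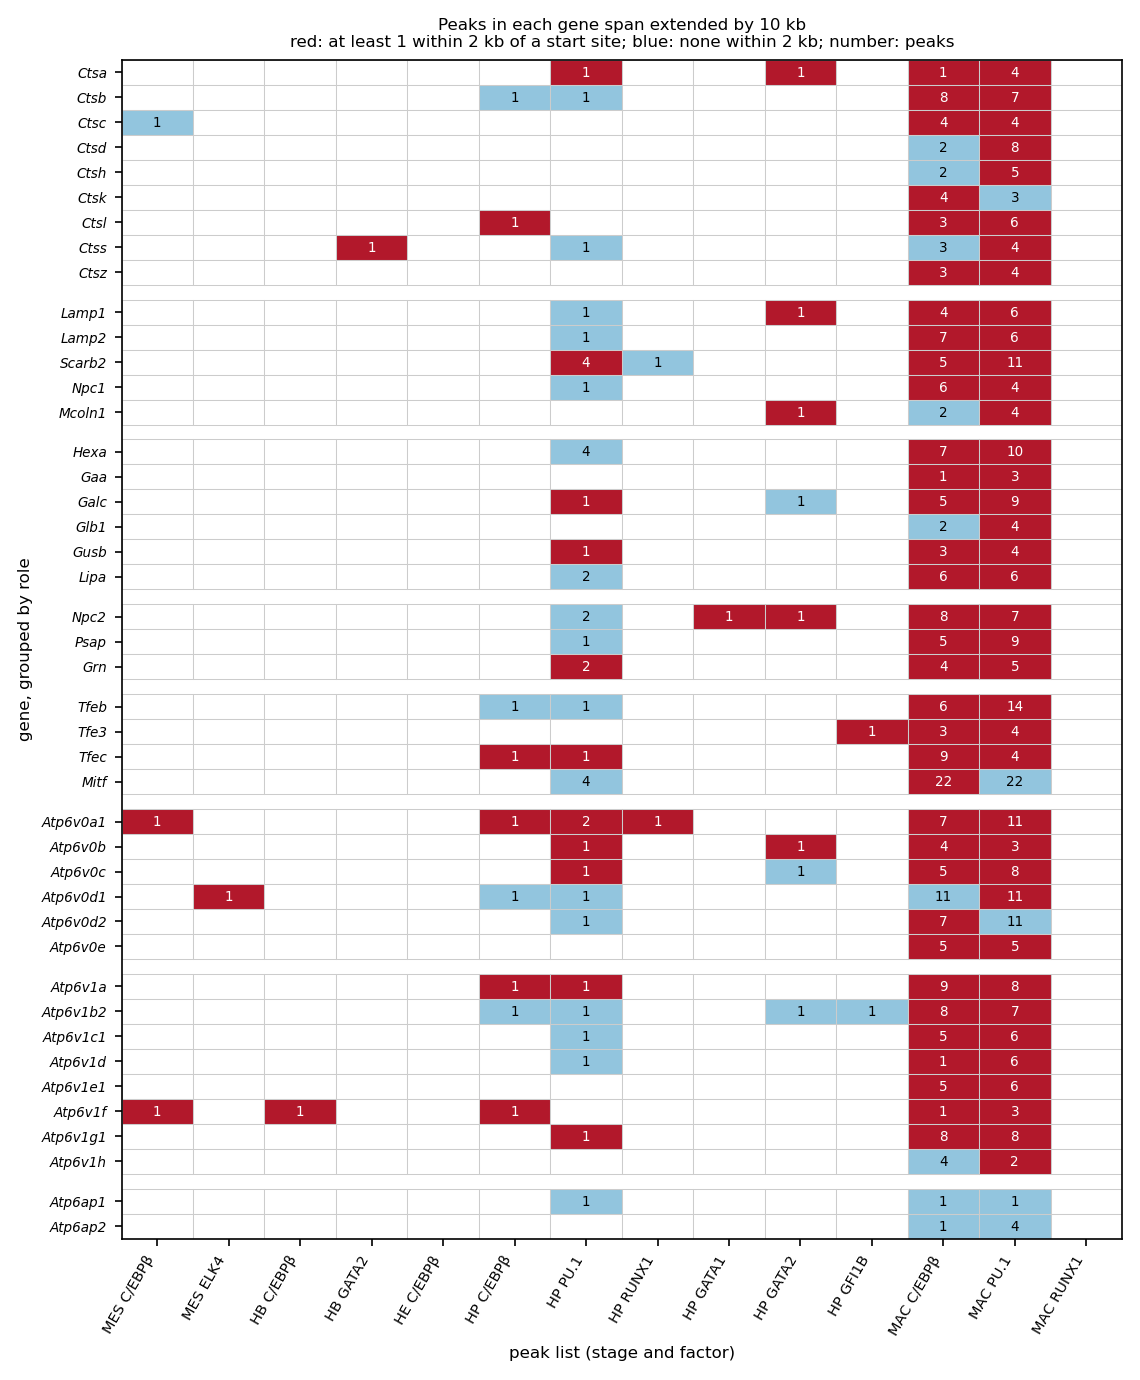
Peaks of each of the 14 lists (columns) in the span extended by 10 kb of each of the 43 genes (rows, grouped by role); red marks at least 1 peak within 2 kb of a start site, blue marks peaks in the span only, and the number is the count of peaks in the span. The MAC PU.1 and MAC C/EBPβ columns are filled for every gene, the HP PU.1 column for 28 genes, and the HE C/EBPβ and MAC RUNX1 columns for none.

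Cathepsins, the proteases of the lysosome, carried MAC PU.1 at 8 of 9 promoters (against 50% of coding genes) and MAC C/EBPβ at 6 of 9 (against 36.6%). Both factors were at Ctsa, Ctsb, Ctsc, Ctsl and Ctsz. At Ctsb, a cysteine protease, the nearest peak centres were 483 bp (MAC C/EBPβ) and 673 bp (MAC PU.1) from the start, and at Ctsc, which activates granule proteases, 653 and 157 bp. At Ctsl, another cysteine protease, they were 67 and 257 bp, and at Ctsz 614 and 202 bp. Ctsd, the aspartic protease, Ctsh and Ctss, the protease that trims the invariant chain of MHC class II, had PU.1 alone in macrophages, at 398, 99 and 4 bp. Ctsk, the collagen-degrading protease of osteoclasts, was the reverse, with C/EBPβ at 518 bp and its nearest PU.1 peak at 4039 bp. Ctsk and Ctss lie next to each other on chromosome 3 and their extended spans share peaks.

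Before macrophages, 5 of the 9 cathepsin genes had a peak in their span, where 43.8% of coding genes had one. Ctsa carried HP GATA2 4 bp upstream and HP PU.1 1278 bp downstream of a start. Ctsl carried HP C/EBPβ 10 bp upstream of its start, and the peak held the C/EBP letters TTGCNNAA at 100 bp from its centre. Ctsc carried a MES C/EBPβ peak 6412 bp upstream, which lay on a MAC C/EBPβ peak. Ctsb had HP C/EBPβ and HP PU.1 in an intron, at 9976 and 9450 bp. Ctss had the only member peak of the HB GATA2 list, 7 bp from its start, and the MAC PU.1 peak of the same promoter was centred 4 bp from that start. HP PU.1 was found 5441 bp upstream of Ctss.

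The 200 bases in the middle of the HB GATA2 peak at Ctss are shown because this peak lies where PU.1 was later found, with the PU.1 letters (GAGGAAGT, here on the opposite strand) in capitals and read along the gene (GRCm38, chr3:95526694-95526893, + strand). The PU.1 letters lie 6 bp from the centre of the peak, and the GATA letters AGATAA are in neither strand of its 400 bases. Among all 97 HB GATA2 peaks, 3.09% held the PU.1 letters and 15.5% the GATA letters. The GATA letters were in 57.9% of HP GATA2 peaks, 17.8% of MES C/EBPβ peaks and 17.3% of MAC PU.1 peaks. The paper gives no enrichment by quantitative PCR for HB GATA2, and whether GATA2 itself sat at Ctss was not tested.
Ctss HB GATA2 peak: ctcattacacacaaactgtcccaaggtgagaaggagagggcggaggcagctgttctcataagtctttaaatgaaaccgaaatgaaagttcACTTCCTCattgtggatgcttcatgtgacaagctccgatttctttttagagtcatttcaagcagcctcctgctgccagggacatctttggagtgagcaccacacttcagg

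The membrane proteins had MAC PU.1 at 5 of 5 promoters (coding genes, 50%) and MAC C/EBPβ at 4 (coding genes, 36.6%). The nearest PU.1 centres were 213 bp from the start of Lamp1 and 85 bp from that of Lamp2, the main glycoproteins of the lysosomal membrane, 114 bp at Scarb2, a lysosomal integral membrane protein, 80 bp at Npc1, the cholesterol exporter, and 723 bp at Mcoln1, a calcium channel. C/EBPβ was nearest at Scarb2 (31 bp) and Npc1 (62 bp), was 519 bp away at Lamp2 and 1734 bp away at Lamp1, and lay 15467 bp from the start of Mcoln1. In progenitors Scarb2 held 4 PU.1 peaks, 2 of them at the promoter, 137 bp upstream and 1246 bp downstream of the start. A further peak of HP PU.1 and the HP RUNX1 peak in the Scarb2 span lay 127 and 78 bp from the start of the neighbour Nup54. Lamp1 and Mcoln1 carried HP GATA2 at the promoter.

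Among the hydrolases, MAC PU.1 was at 6 of 6 promoters and MAC C/EBPβ at 5, where 50% and 36.6% of coding genes had one. Gusb (β-glucuronidase) had both within 50 bp of its start, PU.1 at 39 bp and C/EBPβ at 9 bp, and HP PU.1 at 48 bp. Lipa, the acid lipase, had them in the same order at 50 and 37 bp, and Hexa (hexosaminidase A subunit) at 17 and 100 bp. Gaa, which degrades glycogen, had PU.1 at 553 bp and C/EBPβ at 87 bp, and Galc (galactosylceramidase) at 157 and 709 bp, with HP PU.1 at 161 bp. Glb1 (β-galactosidase) had PU.1 alone at 172 bp, and its start lies 17 bp from that of Tmppe, so that these peaks cannot be assigned to one gene. In progenitors Hexa held 4 PU.1 peaks, all outside its promoter and between 2333 and 27817 bp downstream of its start, and Lipa held 2, at 5876 and 11623 bp.

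All 3 soluble cofactors and carriers had both macrophage factors at the promoter, against 29.9% of coding genes. Npc2, the soluble partner of NPC1, had PU.1 at 19 bp and C/EBPβ at 300 bp. Psap, the precursor of the saposins, had them at 47 and 1634 bp, and Grn (progranulin) at 693 and 629 bp. HP PU.1 lay at the Grn promoter in 2 peaks, 793 and 1690 bp downstream of the start, in the span of Npc2 at 5430 and 24805 bp, and 4088 bp upstream of Psap. Npc2 was the only member with HP GATA1, 16 bp from its start, together with HP GATA2 at 36 bp.

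The genes of the MiT/TFE factors were themselves bound in macrophages. MAC C/EBPβ was at 4 of 4 promoters (against 36.6% of coding genes) and MAC PU.1 at 3 (against 50%). HP PU.1 and HP C/EBPβ were each at 1 (against 9.4% and 3.97%). Tfec, a family member expressed in macrophages, had HP PU.1 33 bp and HP C/EBPβ 256 bp upstream of its start, and in macrophages PU.1 at 64 bp and C/EBPβ at 236 bp. These peaks formed 1 region bound in 4 lists, at chr6:16898275-16898897 (GRCm38). Tfe3 had both macrophage factors within 15 bp of a start, and an HP GFI1B peak 466 bp upstream that held the GFI1B letters AATCNNNGC 34 bp from its centre. Tfeb had MAC PU.1 at 73 bp and MAC C/EBPβ at 1182 bp from a start, and 14 and 6 peaks in its span. Mitf, the longest member at 214 kb, held 22 peaks of each macrophage factor and 35 separate regions, the most of any member. Its promoters carried 3 MAC C/EBPβ peaks, the nearest at 98 bp, and no MAC PU.1 peak, the nearest of which was at 4180 bp, close to an HP PU.1 peak at 4182 bp. HP PU.1 had 4 peaks in the span of Mitf.

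The intron region of Tfeb bound by both factors in both stages (chr17:47754215-47754654, 16501 bp downstream of a start) is shown by the middle 300 bases of its HP PU.1 peak, since it was the only region outside a promoter and inside a gene that 4 lists shared. Capitals mark the letters of C/EBP (TTGCNNAA), PU.1 (GAGGAAGT) and RUNX (TGTGGTT) on either strand (GRCm38, chr17:47754305-47754604, + strand). The RUNX and C/EBP matches share bases, and the C/EBP and PU.1 matches also share a base, so that the 3 form 1 run starting at base 79.
Tfeb HP PU.1 peak: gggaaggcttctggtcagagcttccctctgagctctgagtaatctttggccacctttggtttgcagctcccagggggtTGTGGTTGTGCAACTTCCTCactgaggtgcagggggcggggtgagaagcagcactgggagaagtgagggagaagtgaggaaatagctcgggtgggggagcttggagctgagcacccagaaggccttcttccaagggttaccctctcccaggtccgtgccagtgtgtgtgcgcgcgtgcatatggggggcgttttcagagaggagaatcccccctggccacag

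V0 subunits had MAC PU.1 at 5 of 6 promoters (against 50%) and MAC C/EBPβ at 5 of 6 (against 36.6%). Atp6v0a1, the largest V0 subunit, was bound at the promoter in 6 lists, the most of any member: MES C/EBPβ, HP C/EBPβ, HP PU.1, HP RUNX1, MAC C/EBPβ and MAC PU.1. Of these, 5 fell on 1 region about 1 kb upstream, chr11:101008108-101008601 (GRCm38), with centres 1070 bp (MES C/EBPβ), 1097 bp (HP C/EBPβ) and 1134 bp (HP PU.1) upstream of the start, and HP RUNX1 lay 71 bp downstream of it. Atp6v0b and Atp6v0c encode proteolipids of the rotor ring. Atp6v0b had HP PU.1 at 382 bp, MAC PU.1 at 353 bp, MAC C/EBPβ at 424 bp and HP GATA2 13 bp upstream of its start, and Atp6v0c had HP PU.1 at 1734 bp, MAC PU.1 at 308 bp and MAC C/EBPβ at 137 bp. Atp6v0e had MAC PU.1 at 19 bp and MAC C/EBPβ at 36 bp. The paralogs of subunit d differed: Atp6v0d1, the widely expressed form, had MAC PU.1 (660 bp) and MES ELK4 (45 bp upstream), whereas Atp6v0d2, the form of osteoclasts, had MAC C/EBPβ (1037 bp) and its nearest MAC PU.1 peak at 4667 bp. Each nonetheless held 11 MAC PU.1 peaks in its span.

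V1 subunits had MAC PU.1 at 8 of 8 promoters (against 50%) and MAC C/EBPβ at 7 (against 36.6%). Atp6v1f, a subunit of the central stalk, was bound in 5 lists on 1 region, chr6:29467464-29467874 (GRCm38). C/EBPβ centres lay 113 bp (MES), 110 bp (HB), 109 bp (HP) and 111 bp (MAC) from its start, and MAC PU.1 lay at 120 bp, so that the 4 C/EBPβ summits fell within 4 bp of each other. No HE C/EBPβ peak was called there. Atp6v1a, the catalytic subunit, had HP PU.1 at 225 bp, HP C/EBPβ at 419 bp, MAC PU.1 at 221 bp and MAC C/EBPβ at 436 bp; the HP C/EBPβ peak was closer to the start of the neighbour Naa50, at 113 bp. Atp6v1g1 had HP PU.1 at 1050 bp, MAC PU.1 at 331 bp and MAC C/EBPβ at 288 bp. MAC PU.1 and MAC C/EBPβ were 142 and 616 bp from the start of Atp6v1b2, the other nucleotide-binding subunit, 626 and 45 bp at Atp6v1c1, 14 and 75 bp at Atp6v1d, and 65 and 1172 bp at Atp6v1e1. Atp6v1h had PU.1 alone, at 33 bp. A region 32885 bp downstream of the Atp6v1b2 start, chr8:69121226-69122042, held HP PU.1, HP GATA2, HP GFI1B and MAC PU.1.

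The accessory proteins were the exception. Atp6ap1 and Atp6ap2, both on chromosome X, had no promoter peak in any of the 14 lists. Their nearest MAC PU.1 centres were 2791 and 3009 bp from the start, and their nearest MAC C/EBPβ centres 15811 and 3748 bp. Atp6ap1 had 2 bound regions in its extended span, the fewest of any member, and an HP PU.1 peak at 2868 bp. Atp6v1f had 3 regions and Ctsa, Ctsz, Gaa, Gusb and Atp6ap2 had 4 each, and those with the most after Mitf were Atp6v0d1 (17), Tfeb and Atp6v1a (16 each) and Atp6v0a1 (14). Lamp2 and Tfe3, also on chromosome X, had both macrophage factors at the promoter.

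The middle 300 bases of the HP C/EBPβ peaks at the 2 regions bound in 5 lists, the most of any member region, are shown with any letters of C/EBP, PU.1, RUNX and GATA (whose letters were AGATAA) or the E-box CACGTG in capitals. Neither held the C/EBP letters, which 64% of all HP C/EBPβ peaks held. At Atp6v1f (GRCm38, chr6:29467525-29467824, + strand) a RUNX match lay 22 bp from the centre of the peak, and at Atp6v0a1 (chr11:101008195-101008494, + strand) none of these letters occurred.
Atp6v1f HP C/EBPβ peak: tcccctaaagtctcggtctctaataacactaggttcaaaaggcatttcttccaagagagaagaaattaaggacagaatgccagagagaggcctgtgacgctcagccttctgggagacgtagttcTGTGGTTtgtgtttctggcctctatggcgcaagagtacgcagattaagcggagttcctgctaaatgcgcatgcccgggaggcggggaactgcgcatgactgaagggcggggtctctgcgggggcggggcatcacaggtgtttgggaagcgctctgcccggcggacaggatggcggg
Atp6v0a1 HP C/EBPβ peak: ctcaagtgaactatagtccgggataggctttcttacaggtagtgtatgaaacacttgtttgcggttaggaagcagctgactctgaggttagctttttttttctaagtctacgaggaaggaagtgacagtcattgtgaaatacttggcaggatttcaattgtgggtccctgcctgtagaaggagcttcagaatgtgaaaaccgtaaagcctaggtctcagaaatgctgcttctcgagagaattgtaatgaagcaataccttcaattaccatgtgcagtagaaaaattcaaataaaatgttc

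**Figure D3:**
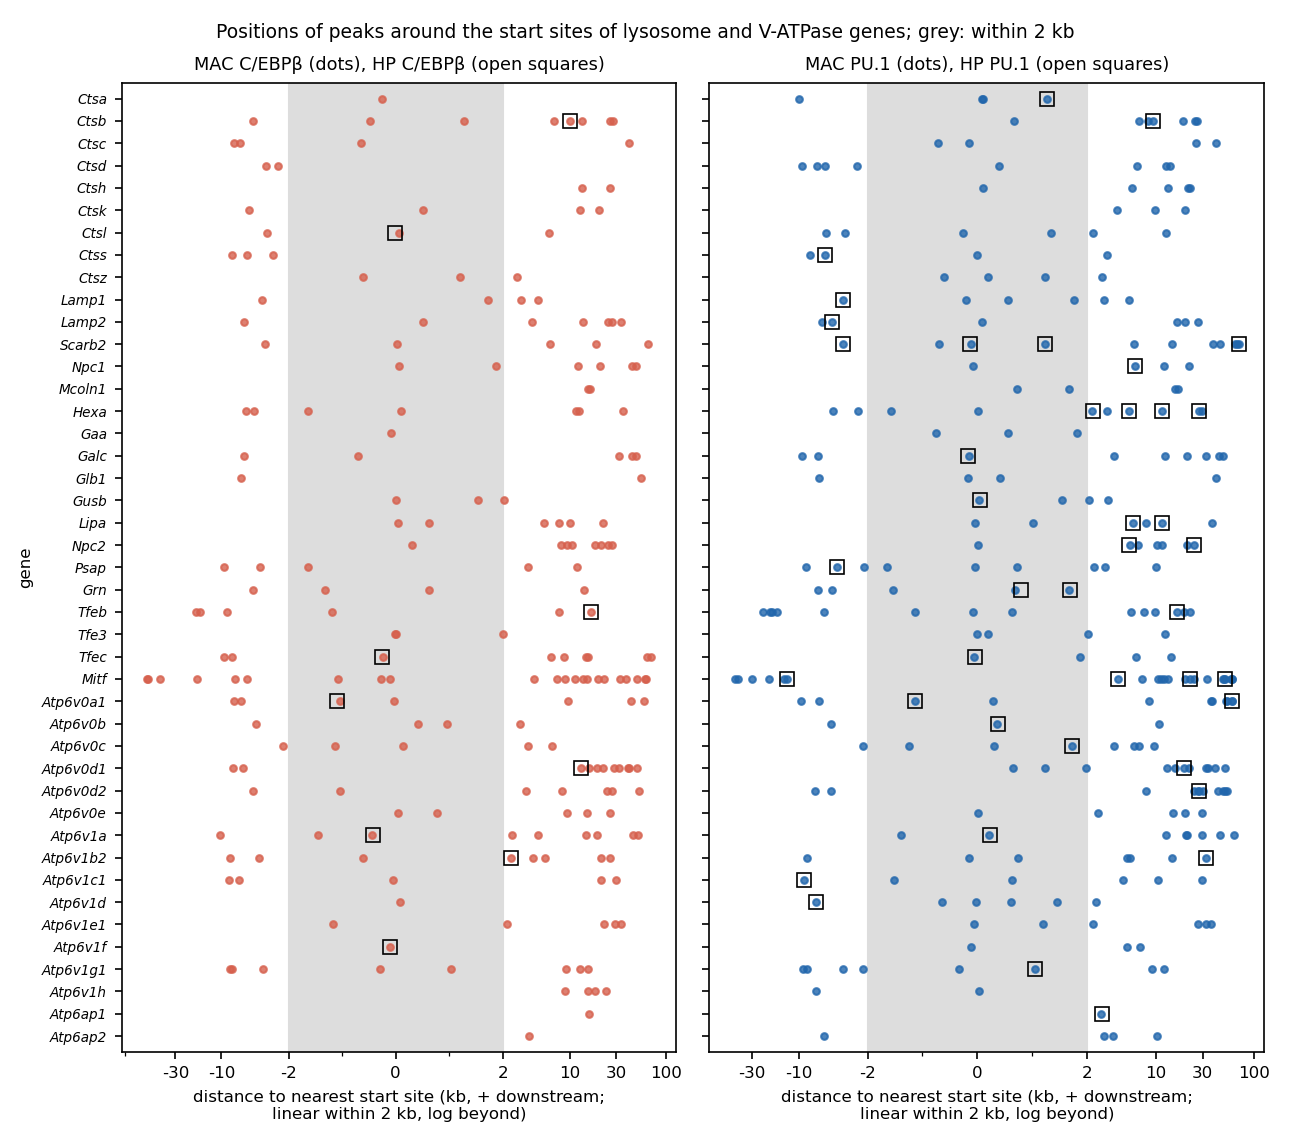
Distance of each peak centre from the nearest start site of its gene (horizontal axis, kb, linear within 2 kb and logarithmic beyond) for the 43 genes, with C/EBPβ on the left and PU.1 on the right; dots are macrophage peaks, open squares are progenitor peaks and the grey band is the promoter window. Every open square sits on or beside a dot of the same factor, and Atp6ap1 and Atp6ap2 at the bottom have no dot in the band.

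Peaks of progenitors recurred in macrophages. All 41 HP PU.1 peaks in member spans overlapped a MAC PU.1 peak by at least 1 bp (interval 91.4 to 100%), against 97% of all HP PU.1 peaks. All 9 HP C/EBPβ peaks overlapped a MAC C/EBPβ peak (interval 66.4 to 100%), against 91.4%, and all 3 MES C/EBPβ peaks did so, against 66.4%. In each case the value over all peaks lay inside the interval, so the recurrence at member genes was not distinguishable from that of the list as a whole. The MAC lists were the longest, and what their length adds to these overlaps was not tested.

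The 2 factors often met within a gene but less often in the same peak. Of 216 MAC C/EBPβ peaks in member spans, 104 overlapped a MAC PU.1 peak (48.1%, interval 41.3 to 55), against 42.5% of all MAC C/EBPβ peaks. Of 276 MAC PU.1 peaks, 104 overlapped a MAC C/EBPβ peak (37.7%, interval 31.9 to 43.7), against 28.5%. Peaks of 1 gene lie close together and are not independent, so these intervals are too narrow by an amount that was not tested. In progenitors 3 of 9 HP C/EBPβ peaks lay on an HP PU.1 peak (33.3%, interval 7.49 to 70.1), against 14.9%. When peaks of all lists were merged wherever they overlapped, the extended spans held 392 separate regions (1 of them lies in the spans of both Ctsk and Ctss), of which 260 were bound in 1 list, 104 in 2, 21 in 3, 5 in 4 and 2 in 5. Such regions were not counted over all coding genes.

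Peaks were spread over the genes. A gene of the set held a median of 6 MAC PU.1 peaks (range 1 to 22) in its extended span and 5 MAC C/EBPβ peaks (range 1 to 22), against 3 and 1 for all coding genes. Per 100 kb of span the medians were 12.6 and 9.42 peaks, against 4.91 and 3.15, and 39 of the 43 genes lay above the median of coding genes for each factor. For HP PU.1 the median was 1.52 per 100 kb, against 0. Of the 563 pairs of a member and a peak in its span, 27.9% were in the promoter window, 41.2% in introns, 2.49% in exons, 14.6% upstream and 13.9% downstream. The member had the nearest coding start for 80.6% of pairs, and 10.1% lay within 2 kb of the start of another gene. These shares of pairs were not computed over all coding genes, so the layout is not shown to be particular to the set.

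The extended spans of members were somewhat longer than usual, with a median of 45 kb against 37.2 kb, and longer spans hold more peaks by length alone. Within the class of shortest spans (20.1 to 28.8 kb, 7 members), MAC PU.1 was in 7 of 7 member spans, against 54.8% of coding genes, and HP PU.1 in 6 (85.7%), against 17.3%. The gap for MAC PU.1 was smaller in longer spans, where it was in 21 of 21 members of the middle class, against 81.1%, and in 15 of 15 of the longest, against 89.3%. Members were at 100% in every class, so this gap could only follow the share of coding genes. In the class of longest spans (above 51.3 kb, 15 members) HP PU.1 was in 12 (80%), against 45.4%. In the middle class HP PU.1 was in 10 of 21 (47.6%), against 29.2%, but at only 1 promoter (Gusb; 4.76%, against 11%), so that its promoter peaks came from the short genes (5 of 7) and the long ones (5 of 15).

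Promoters with many CpG dinucleotides were bound more often in general, so the set was also divided by its promoter sequence. RefSeq windows from 250 bases before to 50 after the start were at hand for 35 of the 43 genes and 17492 coding genes. A window was called CpG-rich when CpG was at least 0.6 of its expected number and the GC content at least 50%, which held for 19 members and 16 were CpG-poor. At CpG-poor promoters MAC PU.1 was at 15 of 16 members (93.8%), against 30.7% of coding genes, MAC C/EBPβ at 14 (87.5%, against 21.3%) and HP PU.1 at 6 (37.5%, against 6.25%). At CpG-rich promoters the gap was narrower, with MAC PU.1 at 16 of 19 (84.2%, against 73.2%), MAC C/EBPβ at 14 (73.7%, against 55.4%) and HP PU.1 at 4 (21.1%, against 13.3%). With 19 genes the share of coding genes lay inside the interval for all 3 lists (60.4 to 96.6, 48.8 to 90.9 and 6.05 to 45.6). HP C/EBPβ was at 4 CpG-poor members (25%, against 2.18%) and at 1 CpG-rich member (5.26%, against 6.11%). HP GATA2 was at 4 CpG-rich members (21.1%, against 1.25%) and 1 CpG-poor member (6.25%, against 0.422%). The CpG-poor members included 6 cathepsins, Lamp2, Hexa, Glb1, Gusb, Lipa, Grn, Tfe3, Tfec, Atp6v0a1 and Atp6v1a.

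**Figure D4:**
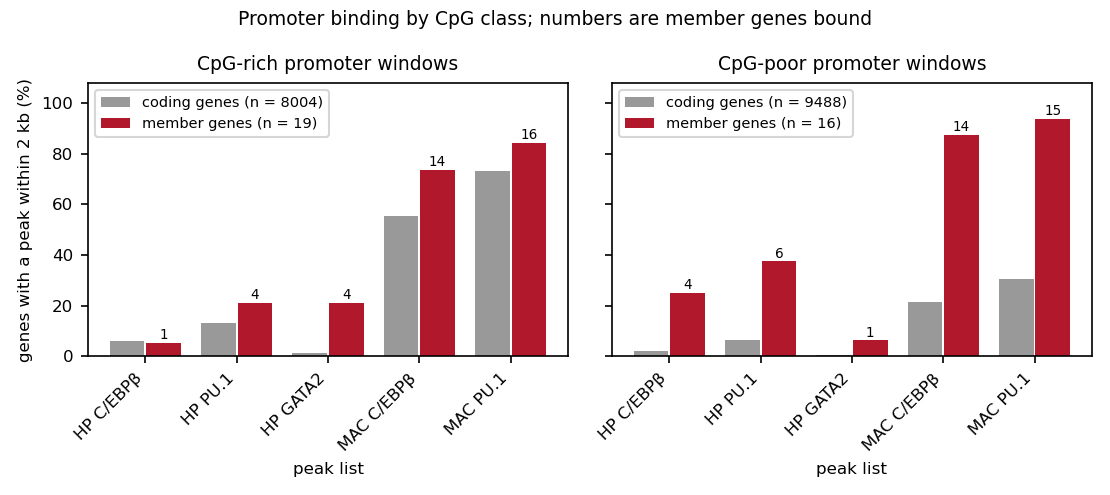
Share of genes with a peak within 2 kb of a start site (vertical axis, percent) in 5 lists, for CpG-rich promoter windows (left) and CpG-poor windows (right); red bars are member genes, with the number bound above each, and grey bars are all coding genes of the class. Red and grey bars differ most at CpG-poor promoters in the MAC lists, and HP GATA2 shows its higher red bar at CpG-rich promoters.

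Most of the 8 HP GATA2 peaks in member spans held an E-box, which most peaks of that list lacked. The 8 peaks lay at the promoters of Ctsa (4 bp upstream of a start), Lamp1 (52 bp downstream), Mcoln1 (108 bp upstream), Npc2 (36 bp downstream) and Atp6v0b (13 bp upstream), in an intron of Galc (43770 bp downstream), and downstream of Atp6v0c and Atp6v1b2. The peak in the Atp6v0c span was 33 bp from the start of the neighbour Amdhd2 and 5043 bp from the nearest start of Atp6v0c, and at Ctsa and Npc2 the peak was also within 2 kb of the start of a neighbour, Neurl2 and Isca2. The E-box CACGTG occurred in 6 of the 8 peaks (75%), against 10% of all 530 HP GATA2 peaks and 17.9% of those within 2 kb of any coding start. Its long form TCACGTGA, which contains the E-box and so counts for both, occurred in 5 of 8 (62.5%), against 2.26% of all and 6.9% of those within 2 kb of a coding start. The GATA letters AGATAA occurred in 2 of 8 (25%, at Npc2 and Galc), against 57.9% and 40.7%. Of the 6 member peaks that were themselves within 2 kb of a coding start, 5 held the E-box (83.3%). The long form was in 4 of them (66.7%) and the GATA letters in 1 (16.7%). All searches covered both strands of the 400 bases.

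In all 6 member peaks that held an E-box, one lay within 50 bp of the peak centre, against 24 of the 53 HP GATA2 peaks that held one (45.3%). Of the 12 HP GATA2 peaks with the long form, 5 (41.7%) were in member spans, against 8 of all 530 (1.51%). The middle 200 bases of these 6 peaks and of the Npc2 peak, which held GATA letters and no E-box, are shown along the strand of the gene, with CACGTG, TCACGTGA and AGATAA (or its reverse complement) in capitals. They were picked for display after the matches were seen. The coordinates (GRCm38) are chr2:164833670-164833869 (+) for Ctsa, chr8:13159114-13159313 (+) for Lamp1, chr8:3500312-3500511 (+) for Mcoln1, chr4:117887243-117887442 (-) for Atp6v0b, chr12:98215590-98215789 (-) for Galc, chr17:24163667-24163866 (-) for Atp6v0c and chr12:84772977-84773176 (-) for Npc2.
Ctsa HP GATA2 peak: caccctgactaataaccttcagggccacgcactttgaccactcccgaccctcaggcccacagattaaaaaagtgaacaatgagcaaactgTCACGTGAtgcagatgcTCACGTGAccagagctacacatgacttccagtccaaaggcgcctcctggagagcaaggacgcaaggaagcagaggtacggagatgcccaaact
Lamp1 HP GATA2 peak: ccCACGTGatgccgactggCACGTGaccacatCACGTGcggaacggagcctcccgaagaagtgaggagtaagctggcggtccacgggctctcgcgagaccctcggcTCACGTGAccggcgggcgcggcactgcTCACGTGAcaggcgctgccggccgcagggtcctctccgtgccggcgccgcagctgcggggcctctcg
Mcoln1 HP GATA2 peak: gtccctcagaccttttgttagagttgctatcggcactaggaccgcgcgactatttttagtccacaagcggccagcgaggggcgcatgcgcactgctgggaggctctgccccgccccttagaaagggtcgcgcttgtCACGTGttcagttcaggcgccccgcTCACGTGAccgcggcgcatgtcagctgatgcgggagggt
Atp6v0b HP GATA2 peak: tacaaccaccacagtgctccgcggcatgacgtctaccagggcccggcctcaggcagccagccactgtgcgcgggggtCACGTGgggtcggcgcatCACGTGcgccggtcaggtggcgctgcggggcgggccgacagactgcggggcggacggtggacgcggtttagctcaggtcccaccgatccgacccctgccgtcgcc
Galc HP GATA2 peak: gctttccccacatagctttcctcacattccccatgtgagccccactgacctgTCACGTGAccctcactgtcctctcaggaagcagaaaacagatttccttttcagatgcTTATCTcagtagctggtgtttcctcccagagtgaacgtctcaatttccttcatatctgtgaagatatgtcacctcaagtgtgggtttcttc
Atp6v0c HP GATA2 peak: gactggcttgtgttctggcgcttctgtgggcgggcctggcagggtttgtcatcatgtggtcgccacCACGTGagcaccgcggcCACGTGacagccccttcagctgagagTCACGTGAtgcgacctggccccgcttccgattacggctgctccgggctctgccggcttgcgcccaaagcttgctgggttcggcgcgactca
Npc2 HP GATA2 peak: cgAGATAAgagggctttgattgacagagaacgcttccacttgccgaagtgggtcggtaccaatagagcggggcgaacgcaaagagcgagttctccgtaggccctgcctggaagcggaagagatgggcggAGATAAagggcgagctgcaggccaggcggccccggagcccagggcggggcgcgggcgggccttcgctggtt

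The Ctsa peak held the long form in 2 copies, at bases 91 and 108 of the printed sequence, and the Lamp1 peak held 5 E-boxes in its middle 200 bases, 2 of them in the long form. At Atp6v1b2 the peak held none of these letters and had the ELK4 letters CCGGAAGT 5 bp from its centre. Of the 8 peaks, 6 overlapped a MAC PU.1 peak by at least 1 bp (75%, interval 34.9 to 96.8), against 48.7% of all HP GATA2 peaks, and 3 did so by at least 200 bp (37.5%, against 39.1%). Only the Npc2 peak overlapped an HP GATA1 peak (12.5%, against 19.6%). In the lists of the main factors the shares with an E-box were closer to those of all peaks: the E-box share in member spans was 8.7% for MAC PU.1 (all peaks, 6.34%), 8.8% for MAC C/EBPβ (all peaks, 6.87%), 1 of 41 HP PU.1 peaks (2.44%, against 5.7%) and none of 9 HP C/EBPβ peaks (against 7.66%). Among peaks within 2 kb of a coding start it was 13.2% for MAC PU.1 (12 of 91, against 8.48%) and 16.4% for MAC C/EBPβ (10 of 61, against 9.58%), and the long form was in 1.81% of MAC PU.1 (5 of 276, against 0.5%) and 1.85% of MAC C/EBPβ member peaks (4 of 216, against 0.516%). No factor of the MiT/TFE family was mapped, a match is not evidence that any factor sat there, and why these peaks were called in the GATA2 experiment was not tested.

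**Figure D5:**
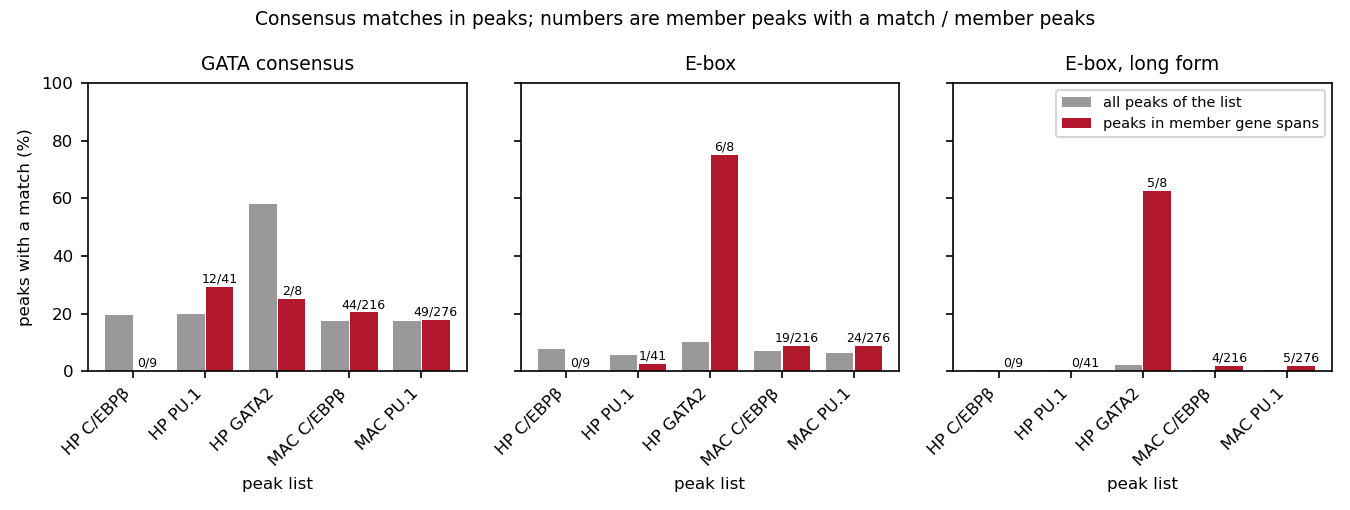
Share of peaks (vertical axis, percent) with the GATA letters, the E-box and the long E-box form in 5 lists; red bars are peaks in member spans, with the number of matches over the number of peaks above each, and grey bars are all peaks of the list. In HP GATA2 the red bars are 25% for GATA, 75% for the E-box and 62.5% for the long form, and in the other lists red and grey E-box bars stay below 10%.

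E-boxes were also more common in the member promoters themselves. In the 35 windows of 300 bases, CACGTG occurred in 10 (28.6%), against 7.91% of 17492 coding promoters, at Ctsd, Ctsl, Lamp1, Mcoln1, Gaa, Glb1, Atp6v0b, Atp6v0d1, Atp6v0e and Atp6v1a. The long form occurred in 5 (14.3%), against 1.25%, at Ctsd, Mcoln1, Atp6v0d1, Atp6v0e and Atp6v1a. HP GATA2 peaks were found at 3 of the 10 promoters whose window held an E-box (30%), against 23 of 1384 such coding promoters (1.66%). They were also at 2 of the 25 member promoters whose window held none (8%, against 0.726%), those of Ctsa and Npc2. The Ctsa peak itself held the E-box, outside the window of that gene. The letters of C/EBP occurred in 17.1% of member windows (against 10.1%), of PU.1 in 8.57% (against 3.14%), of RUNX in 11.4% (against 4.83%), of GATA in 8.57% (against 9.94%), of ELK4 in 5.71% (against 5.28%), of GFI1B in 14.3% (against 10.9%) and of AP-1 (TGANTCA) in 8.57% (against 7.03%).

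The single MES ELK4 peak of the set, at Atp6v0d1, also held the long E-box form, 45 bp from its centre, and lacked the ELK4 letters CCGGAAGT. Among the 524 peaks of that list, 1.72% held the long form, 11.8% the E-box and 9.35% the ELK4 letters. Its middle 200 bases (GRCm38, chr8:105566010-105566209, - strand) are shown for comparison with the GATA2 peaks, with the long form in capitals.
Atp6v0d1 MES ELK4 peak: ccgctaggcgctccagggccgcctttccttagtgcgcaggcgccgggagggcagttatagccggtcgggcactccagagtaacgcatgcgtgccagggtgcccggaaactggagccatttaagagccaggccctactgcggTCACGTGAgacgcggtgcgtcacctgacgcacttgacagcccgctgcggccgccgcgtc

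For PU.1 and for MAC C/EBPβ, the letters of the mapped factor were about as common in member peaks as in the whole list. The share with PU.1 letters was 23.9% for MAC PU.1 (against 24.4%) and 41.5% for HP PU.1 (against 42.1%), and C/EBP letters were in 42.1% of MAC C/EBPβ peaks (against 41.9%). In the other HP lists the member peaks were few: C/EBP letters were in 4 of 9 HP C/EBPβ peaks (44.4%, against 64%), the RUNX letters TGTGGTT in 0 of 2 HP RUNX1 peaks (against 26.2%) and GFI1B letters in 2 of 2 HP GFI1B peaks (against 44.9%), beside the 2 of 8 with GATA letters for HP GATA2.

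Further genes of the pathway, 115 in 4 lists written for this work, were bound above the share of coding genes by PU.1 and C/EBPβ when pooled, but not in every list. MAC PU.1 was at 94 promoters (81.7%, against 50% of coding genes) and MAC C/EBPβ at 72 (62.6%, against 36.6%). HP PU.1 was at 26 promoters (22.6%, against 9.4%) and in 62 spans (53.9%, against 30.6%), and HP C/EBPβ was at 9 promoters (7.83%, against 3.97%) and in 29 spans (25.2%, against 11.2%). MAC PU.1 was at 31 of 37 other enzymes and cofactors (83.8%), 23 of 26 other membrane proteins (88.5%), 29 of 35 genes of lysosomal delivery and nutrient sensing (82.9%) and 11 of 17 other pump subunits and assembly factors (64.7%). Nearer to coding genes were MAC C/EBPβ at promoters of the other pump genes (7 of 17, 41.2%), HP PU.1 in their spans (5 of 17, 29.4%) and HP PU.1 at promoters of the delivery and sensing genes (3 of 35, 8.57%), and HP C/EBPβ was at 0 of these 35 promoters. HP GATA2 was at 1 of the 115 promoters (0.87%, against 0.735% of coding genes) and in 2 spans (1.74%, against 2.41%). Genes with promoter peaks in at least 4 lists included Prcp, Slc15a3 and Tpcn1 (5 lists each) and Acp2, Cln3, Gla and Pip4p1 (4 lists each). Gla encodes α-galactosidase A. The promoter bound by HP GATA2 was that of Pip4p1.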

How the data were processed

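The 14 deposited files hold peak positions only (chromosome, start and end), without any measure of peak strength. Per the labels and the study's methods, the authors aligned reads to mm10 (GRCm38) with Bowtie, and the submitters' processing notes also name bedtools. MACS was run with each stage's input as control, at thresholds chosen by eye, and polyPeak refined the result. Tool versions are absent from the sources read, and the study's table of aligned reads was not used here.

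Peak centres were compared with RefSeq GRCm38 coding genes (26906 start sites, from curated transcripts where a gene had any), and no condition could be tested with 1 list in each group. Of 43 members, 35 matched the RefSeq promoter table. The members not matched were Ctsb, Ctsh, Npc1, Atp6v0d2, Atp6v1b2, Atp6v1c1, Atp6v1g1 and Atp6v1h. Bases were read from the RefSeq GRCm38 sequence. Every member is accounted for. Named with positions are those with a promoter peak outside the MAC PU.1 and MAC C/EBPβ lists, with both or neither of these, with the most or fewest regions, and the MiT/TFE genes, and of the other pathway genes those bound in at least 4 lists, some of which are not reported here. Sequences show the promoters and regions bound in most lists, and those of Ctsa, Lamp1, Mcoln1, Npc2, Galc, Atp6v0b, Atp6v0c, Ctss and Atp6v0d1 were picked after their matches were seen. The members, lists and consensus letters were chosen with earlier results of these data known. Python 3.11.15, NumPy 2.4.6, SciPy 1.17.1, pysam 0.24.0 and Matplotlib 3.10.9 were used, and the counting was tested on simulated data.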

Additional observations from a re-analysis of the deposited data

How the results depend on the processing

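Values are the share of members minus the share of all coding genes, in percentage points, unless stated. Over 13 results and 73 alternatives, 72 differences stayed above 0 and 1 did not, and 56 stayed within the interval of the value as reported. Promoter windows of 1 and 5 kb, other sets of start sites, any overlap in place of the peak centre, and curated genes as background were among these 56. The alternatives recount the same peaks, and where members were at 100% the difference could not fall below 0. The interval itself included 0 for HP C/EBPβ at promoters (-0.0874 to 21.1) and in spans (-1.18 to 24.8). It also did so for the overlaps between peaks. Within its wide interval HP PU.1 at promoters still moved, from 16.2 to 9.15 with 1 kb (7 members, 16.3% against 7.13%) and 26.2 with 5 kb. The split by CpG class, chosen after seeing the data, moved most: at CpG-rich promoters the difference was -0.846 for HP C/EBPβ, 18.3 for MAC C/EBPβ and 11 for MAC PU.1, and at CpG-poor promoters it was 22.8, 66.2 and 63.1. For spans, MAC C/EBPβ gave 35.8 without extension, 35.2 with 5 kb and 18.8 with 50 kb, and MAC PU.1 gave 38.9, 28.7 and 16, where the share of all coding genes also rises with the window. Assigning each peak to the nearest start site gave 26.6 for MAC PU.1, and counting only peaks farther than 2 kb from any coding start gave 28.9 for MAC PU.1 and 3.26 for HP GATA2 (2 members, 4.65% against 1.4%). HP C/EBPβ in spans fell to 0.993 without such promoter peaks. With an overlap of at least 200 bp, member peaks minus all peaks was 4.1 for HP PU.1 on MAC PU.1 and 9.68 for HP C/EBPβ on MAC C/EBPβ. No paired analysis was possible because each group is 1 list. Where a list has few peaks or a class few genes, 1 gene moves a share by several points, and peak heights, which would separate strong from weak sites, were not analysed here.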

Other observations

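Outside the 43 genes, the long E-box form occurred in 7 more of the HP GATA2 peaks. Of these, 6 were within 2 kb of a coding start: 30 bp from that of Cnppd1, 31 bp from Dvl2, 50 bp from Sgo1, 95 bp from Zmym6, 194 bp from Pip4p1 and 1113 bp from Lpin1. The remaining peak had its nearest coding start, that of Arf1, at 10786 bp. Pip4p1 was the only gene among these that was also on the lists of further lysosomal genes.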
